A study of Arabidopsis thaliana with 18 samples.

Results

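The 200 genes described here are Arabidopsis thaliana genes that the array's annotation names only by a locus code. Genes whose RefSeq symbol is a name were left out as well. Within that class, they are the genes whose signal in salt-treated leaves fell most from day 1 to day 5. They were drawn from 6187 locus-code genes with a mean log2 signal of at least 4.01 over all 18 arrays, out of 11798 locus-code genes and 13350 genes with a probe set of their own. The score of a gene was the smaller of its falls in the salt reference and in leaves given an algal fraction (EAA), and the 200 highest scores were taken, so the genes were selected on their falls in the reference and EAA arrays. AT5G20660, the last gene taken, scored 1.34, and AT5G65440, the first gene left out, scored 1.33, so the boundary is not a gap in the data. Each gene is represented by its brightest probe set. Signals are log2 values of 1 array per sample, and a difference of 1 is a doubling or halving of signal.

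The plants were 2 weeks old. All plants first stood in 150 mM NaCl for 24 hours, so every group carries the salt treatment and no unsalted leaves were analysed here. They were then given 0.1% aqueous methanol (the salt reference), a methanolic extract (MEA) of Ascophyllum nodosum, a brown seaweed, or the part of that extract taken up in ethyl acetate (EAA). Leaves were sampled on day 1 and day 5, with 3 arrays in each of the 6 groups. The reference arrays are called so from their source name, which gives NaCl alone, while their titles and descriptions name EAA; each statement on the reference or on EAA against it rests on the source name. The sources used here state no genotype, no extract dose and no number of plants per sample. Samples of a group are numbered as biological replicates, but separate plantings are not mentioned, and p-values then measure only the spread between these samples, which may be technical.

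A locus code gives the chromosome and the order of a gene along it, and says nothing of what the gene does. Extracts of A. nodosum are sold as plant biostimulants and are studied for their effect on salt tolerance. Under lasting salt, plants grow more slowly and older leaves senesce early. Because genes with a name as their RefSeq symbol were left out beforehand, a name could appear only among the RefSeq synonyms. Of the 200 genes, 1 has a name there, AT5G61590, listed as DEWAX (Decrease Wax Biosynthesis). It is a transcription factor of the AP2/ERF family that represses genes of cuticular wax synthesis. Among all 6187 locus-code genes 83 have a name among these synonyms. With no name or description for the others, no role is given for them and the planned sorting into 14 gene groups by keyword could not be made. The genes are spread over all 5 nuclear chromosomes, with 57, 24, 44, 32 and 43 on chromosomes 1 to 5, and 1 of them, AT4G16870, is listed as a pseudogene.

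The tissue label could be checked with 3 of 23 markers that have a probe set of their own. The Rubisco activase gene RCA, abundant in green leaf cells, had group means of 13.34 to 13.89. The root beta-glucosidase gene PYK10 lay at 3.03 to 3.74, near the low end of the signals, and the guard cell regulator gene FAMA at 4.78 to 5.03. Arrays of a day 1 group correlated at 0.993 to 0.996 over all probe sets. On day 5 the values were 0.982 to 0.993 in the reference, 0.980 to 0.992 with EAA and 0.928 to 0.983 with MEA. In bulk leaf tissue, less RNA per cell and fewer cells of a type that uses a gene cannot be told apart.

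Across the 200 genes the median signal was 7.60 to 7.78 in each of the 9 arrays of day 1, whatever the treatment. On day 5 it was 5.25, 5.61 and 5.38 in the reference arrays and 5.09, 5.49 and 5.34 in the EAA arrays. With MEA on day 5 it was 7.32 in replicate 1, 5.16 in replicate 2 and 7.49 in replicate 3. Replicate 2 thus stood with the other day 5 arrays, and replicates 1 and 3 stood just under the day 1 arrays. Whether a label is wrong among these arrays was not tested, the labels were kept, and every MEA mean, SE and call for day 5 rests on them. The remaining 5987 locus-code genes had medians of 6.23 to 6.41 in all 18 arrays.

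**Figure D1:**
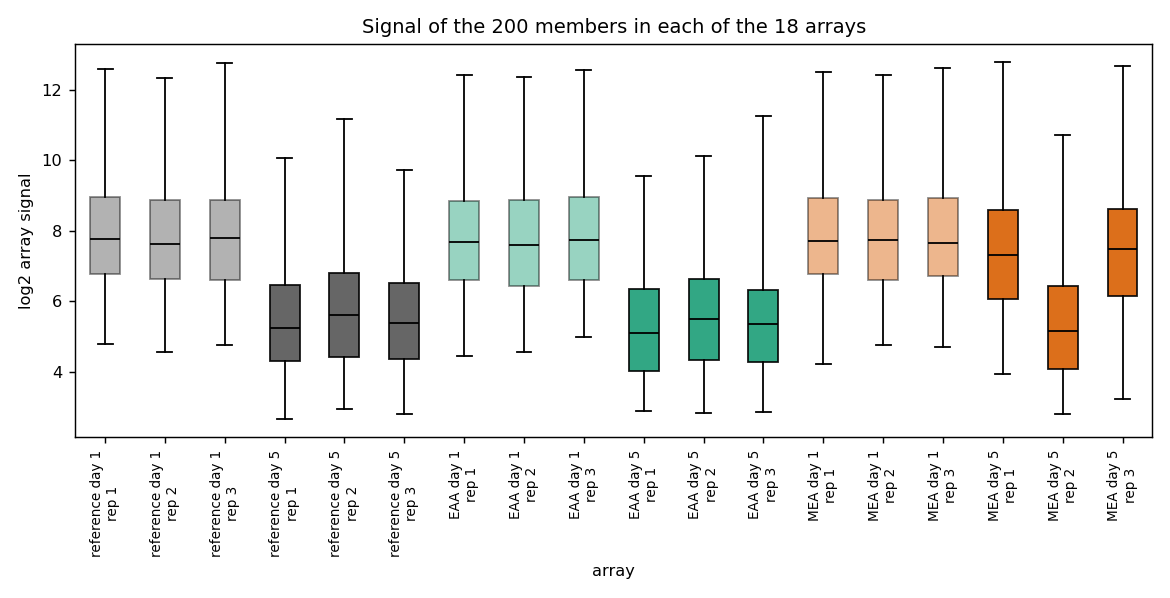
Log2 array signal (vertical axis) of the 200 genes in each of the 18 arrays (horizontal axis). Boxes span the quartiles with the median as a line, and whiskers reach the lowest and highest gene. Medians lie at 7.60 to 7.78 on day 1, at 5.09 to 5.61 in the reference and EAA arrays of day 5, and at 7.32, 5.16 and 7.49 in the 3 MEA arrays of day 5.

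The falls in the reference and with EAA chose the genes, and are given as a description without a test. The median fall was 1.98 in the reference (range 1.34 to 6.09) and 2.15 with EAA (range 1.34 to 5.96), while the median over the other locus-code genes was -0.01 in both. A score of at least 2 was reached by 80 genes and one of at least 4 by 9. In all 200 genes the 3 day 5 arrays lay under the 3 day 1 arrays in the reference and with EAA, which selection on these falls favours. Over the 13648 probe sets tested the share was 28.3% in the reference and 30.5% with EAA. The fall was larger with EAA in 105 genes and larger in the reference in the rest, and the median difference between the treatments was 0.02.

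AT4G30650 had the highest score. In the reference it stood at 11.95, 11.6 and 11.54 on day 1 and at 6.13, 4.81 and 6.12 on day 5. With EAA it stood at 11.7, 11.66 and 11.72 on day 1 and at 5.89, 5.83 and 5.49 on day 5. These are falls of 6.01 and 5.96 from one of the brighter signals of the set to a middling one. With MEA it stood at 12.05, 11.43 and 11.83 on day 1 and at 10.87, 5.16 and 11.22 on day 5, so replicate 2 read as low as the other treatments and replicates 1 and 3 stayed close to day 1. AT4G30660, the next gene along the chromosome, also belongs to the set. It fell by 4.12 in the reference and by 3.64 with EAA, and in the MEA arrays of day 5 it read 10.47, 7.43 and 10.51.

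AT2G39920 and AT1G56300 ranked next. AT2G39920 stood at 9.07, 9.01 and 9.07 on day 1 and at 3.27, 3.56 and 3.39 on day 5 in the reference, and at 9.05, 9.19 and 9.11 on day 1 and at 3.34, 3.7 and 3.34 on day 5 with EAA. AT1G56300 went from 10.13, 10.12 and 10.16 to 4.08, 3.97 and 4.11 in the reference, and from 9.9, 10.2 and 9.94 to 4.73, 4.97 and 3.86 with EAA. In both genes and both treatments the days were far apart compared with the spread between arrays. In the MEA arrays of day 5 AT2G39920 read 8.84, 3.94 and 9.14, and AT1G56300 read 9.79, 4.19 and 9.85. In both genes replicate 2 is the single low array of the group.

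AT5G61590, the gene listed as DEWAX, ranked number 14. In the reference its signal stood at 9.51, 9.29 and 9.54 on day 1 and at 5.34, 6.44 and 5.93 on day 5. With EAA it stood at 9.02, 9.38 and 9.1 on day 1 and at 4.79, 6.2 and 5.38 on day 5. The days did not overlap in either treatment, and the falls were 3.54 and 3.71. With MEA it stood at 9.81, 9.38 and 9.71 on day 1 and at 9.37, 6.84 and 9.41 on day 5, a difference of -1.09 (SE 0.53, adjusted p = 0.257) that did not pass limma's test across all probe sets.

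**Figure D2:**
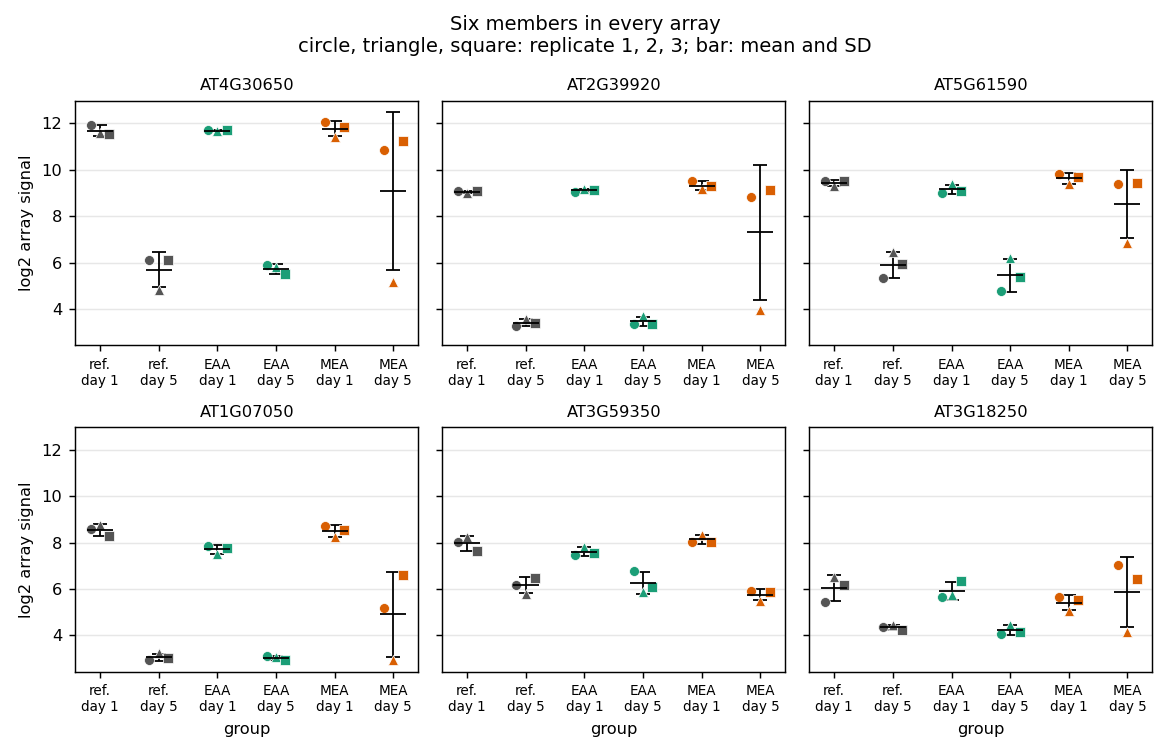
Log2 array signal (vertical axis) of 6 of the 200 genes in the 6 groups (horizontal axis). Each point is an array (circle, triangle and square for replicates 1, 2 and 3), and bars give the mean and SD of 3 arrays. In AT4G30650, AT2G39920 and AT5G61590 the MEA day 5 replicates 1 and 3 lie near day 1 and replicate 2 lies low. AT1G07050 and AT3G59350 are lower in all 3 MEA arrays of day 5, and AT3G18250 is higher than on day 1 in 2 of them.

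The low end of the scale limits some of these falls. The day 5 mean was under 4.01 in 29 genes in the reference, in 40 with EAA and in 27 with both, and for these the size of the fall is uncertain. AT2G39920, AT5G62360 and AT1G07050 are examples among the high scorers. AT5G62360 had day 5 means of 3.89 in the reference and 3.40 with EAA. At the other end AT3G22240 was the brightest gene of the set on both days, with group means of 12.56 on day 1 and 10.32 on day 5 in the reference.

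The genes also differed in how evenly the arrays of day 5 agreed. The median SD over the 200 genes was 0.17 to 0.18 in the day 1 groups. On day 5 it was 0.28 for the reference, 0.32 for EAA and 1.23 for MEA. In the reference and with EAA the SD of AT5G03350 was the largest of the set on day 5. It read 7.36, 8.96 and 5.05 in the reference arrays of day 5 and 3.53, 6.56 and 8.71 in the EAA arrays, after 11.57, 10.62 and 11.62 and 11.36, 11.06 and 11.52 on day 1. Every day 5 array lay under day 1, but how far it had fallen differed between samples of a group. AT1G73600, named after its values were seen, fell in the EAA arrays to 6.05, 8.9 and 9.0, where replicate 1 lay far under the other two. In 113 of the 200 genes reference day 5 replicate 2 held the highest of its group's 3 values. EAA day 5 replicate 2 did so in 92. The lowest value was in reference day 5 replicate 1 in 101 genes. With EAA on day 5 it was in replicate 1 in 94 genes and in replicate 3 in 85. The shares over all probe sets were not counted, so an offset of whole arrays cannot be told apart from a trait of these genes.

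The MEA arrays took no part in the score, so the change from day 1 to day 5 with MEA was tested (limma, 3 arrays against 3, in a fit of all 18 arrays, with p-values adjusted over all 13648 probe sets). The fit took 1 spread per probe set from all 6 groups. With a median SD of 1.23 in MEA day 5 against 0.17 to 0.32 in the other groups, its SEs and p-values can understate the MEA spread. A fit of the 6 MEA arrays alone called 0 of the 200. With MEA 37 of the 200 genes (18.5%) fell past the threshold of adjusted p under 0.05 and 0 rose, against 2.33% of all probe sets called lower and 1.59% called higher. The median difference of the 200 genes was -0.98, a 1.97-fold fall, against -0.04 over all probe sets tested. The difference was below 0 in 197 genes, and 117 had an unadjusted p under 0.05, against 20.4% of all probe sets. In 90 genes (45%) all 3 day 5 arrays lay under all 3 day 1 arrays, against 12.1% of all probe sets. The MEA arrays did enter the mean signal that set the filter and the choice of probe set. These counts thus describe how far genes picked for falling in the other treatments moved in arrays kept out of the score.

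The median hides a split between the MEA arrays. Replicate 2 lay at least 1 under the day 1 mean in 197 genes (11.4% of all probe sets), replicate 1 in 35 (2.48%) and replicate 3 in 27 (2.54%). Relative to the mean fall of the reference and EAA, replicate 2 had covered a median of 1.07 of the way, replicate 1 0.14 and replicate 3 0.13. The log2 difference between the 3' and 5' control probe sets of actin was 2.88 in replicate 1 and 2.30 in replicate 3, against 1.56 in replicate 2 and 1.67 to 2.03 in the reference arrays. For GAPDH it was 1.06 in replicate 1, while replicate 3 at 0.30 and replicate 2 at 0.11 lay within the 0.002 to 0.498 of the reference arrays. The actin difference was 2.78 in EAA day 5 replicate 1, whose median of 5.09 over the 200 genes was the lowest of all 18 arrays. The part of RNA quality in the difference between the MEA arrays was not tested.

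**Figure D3:**
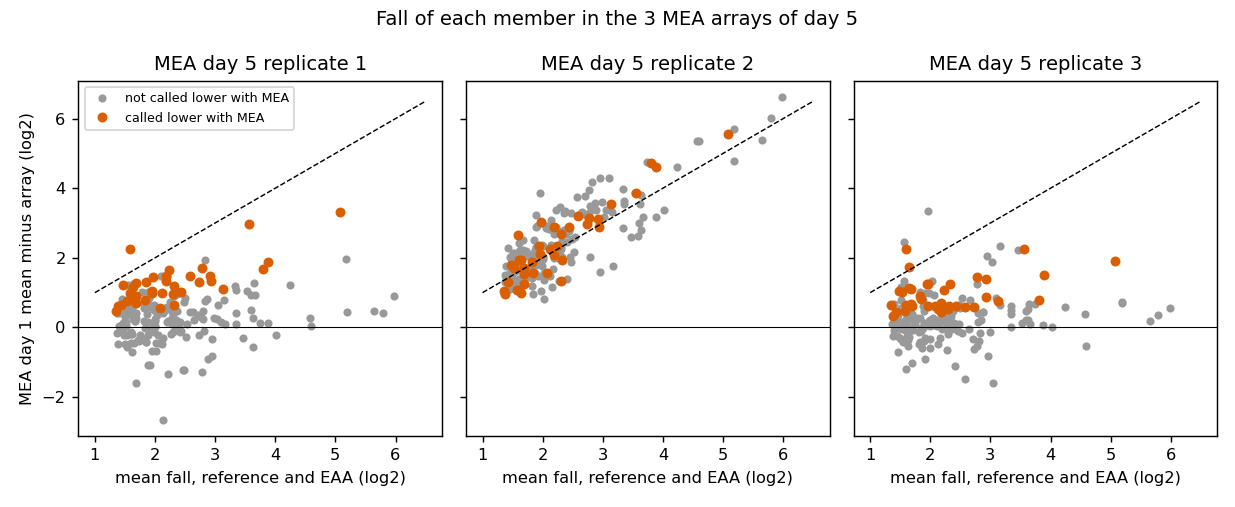
Fall of each of the 200 genes in the 3 MEA arrays of day 5 (MEA day 1 mean minus the array, log2, vertical axis) against the mean of its falls in the reference and with EAA (log2, horizontal axis), 1 panel per array. The dashed line marks equal falls, and orange points are the 37 genes called lower with MEA. Replicate 2 follows the line, while in replicates 1 and 3 most genes lie near 0, and the median differences from day 1 are -0.38 and -0.26.

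AT1G07050 had the largest fall with MEA. It stood at 8.73, 8.23 and 8.56 on day 1 and at 5.18, 2.95 and 6.59 on day 5, a fall of 3.60 (SE 0.56, adjusted p = 0.00297). All 3 arrays of day 5 lay below all 3 of day 1, though replicate 3 had moved the least. The SD of this gene with MEA was 0.26 on day 1 and 1.83 on day 5, so the shared SE understates its spread on day 5. AT2G16660 stood at 8.41, 9.37 and 9.31 on day 1 and at 6.07, 5.16 and 6.78 on day 5 and fell by 3.03 (SE 0.42, adjusted p = 0.00114). AT4G33980 stood at 7.7, 7.19 and 7.34 on day 1 and at 5.53, 2.8 and 5.91 on day 5 and fell by 2.67 (SE 0.56, adjusted p = 0.0174). In each of these 3 genes replicates 1 and 3 also lay well under day 1, but above the level reached by replicate 2. AT1G48210 fell by 2.11 (SE 0.34), AT2G21130 by 2.00 (SE 0.35), AT1G32860 by 1.91 (SE 0.35) and AT4G01130 by 1.76 (SE 0.42), with adjusted p-values of 0.00351, 0.00669, 0.00923 and 0.0303. AT5G39410 and AT5G50450 fell by 2.39 and 1.81 (adjusted p = 0.0443 and 0.0464), but passed in 8 and 6 of the 26 alternative fits, with adjusted p-values of up to 0.493 in both. Without MEA day 5 replicate 2 their differences were -1.24 and -0.94, that of AT4G33980 was -1.69 and that of AT4G01130 was -1.04. AT1G07050 and AT2G16660 passed in 25 of the 26, the exception being the fit of the 6 MEA arrays alone.

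AT3G59350 had the smallest adjusted p of the set with MEA. It stood at 8.02, 8.35 and 8.03 on day 1 and at 5.89, 5.48 and 5.87 on day 5, a fall of 2.39 (SE 0.24, adjusted p = 0.000138). In the reference it stood at 8.03, 8.25 and 7.62 on day 1 and at 6.16, 5.8 and 6.49 on day 5, and with EAA at 7.47, 7.81 and 7.56 on day 1 and at 6.78, 5.87 and 6.09 on day 5. The 3 MEA arrays of day 5 read alike, and the fall was larger than those of 1.82 and 1.36 for which the gene was chosen at rank 185. The difference between the treatments was not tested, because the other falls entered the rule.

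In all, 10 genes had covered over 0.5 of the mean fall of the other treatments in both replicate 1 and replicate 3, which is 34.5% of the 29 that had done so in replicate 1 and 41.7% of the 24 in replicate 3. They were AT2G16660, AT1G48210, AT2G38465, AT5G25210, AT1G32860, AT5G51570, AT4G16563, AT3G28220, AT3G58570 and AT3G59350, picked out after their values were seen. AT5G51570 stood at 8.34, 8.16 and 8.44 on day 1 and at 7.03, 6.6 and 7.2 on day 5 and fell by 1.37 (SE 0.16, adjusted p = 0.000593). AT3G58570 stood at 7.65, 7.85 and 7.7 on day 1 and at 6.5, 5.94 and 6.67 on day 5 and fell by 1.36 (SE 0.17, adjusted p = 0.000784). Day 5 was clear of day 1 in every array of both genes. The 37 genes called lower were not those with the largest falls elsewhere, since their median score was 1.93 against 1.87 for the other 163, and 4 of the 20 highest scores were among them. They differed in evenness, with a median SD of 0.69 against 1.32 in the MEA arrays of day 5. That difference is built into the call, since unevenness raises the spread used in the test.

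Of the 20 genes with the highest scores 4 passed the threshold with MEA, and the following are among those that did not. AT4G34950 stood at 10.38, 10.34 and 10.56 on day 1 and at 8.46, 5.64 and 9.73 on day 5, a difference of -2.48 (SE 0.67, adjusted p = 0.0509). AT4G30650 differed by -2.69 (SE 1.04, adjusted p = 0.16) and AT2G39920 by -2.02 (SE 0.87, adjusted p = 0.206). AT3G47800 differed by -1.91 (adjusted p = 0.0518). These p-values do not show that the genes stayed level with MEA, as the difference of replicate 2 alone from day 1 was -6.62 in AT4G30650.

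Some genes stood above all 3 MEA day 1 arrays on day 5, 38 in MEA replicate 1 and 34 in replicate 3. AT3G18250 had the highest difference of the set. It stood at 5.67, 5.05 and 5.52 on day 1 and at 7.01, 4.13 and 6.43 on day 5 with MEA, a difference of 0.45 (SE 0.51, adjusted p = 0.654), while the reference went from 5.41, 6.52 and 6.15 to 4.35, 4.45 and 4.21. Replicates 1 and 3 lay above all 3 day 1 arrays and replicate 2 lay below them. AT3G44450 showed the same order, at 8.54, 8.1 and 8.44 on day 1 and at 9.44, 6.42 and 9.25 on day 5 with MEA (0.01, SE 0.58, adjusted p = 0.995). AT4G29610 was a dim gene at 4.62, 4.76 and 5.02 on day 1 and at 5.26, 3.42 and 6.0 on day 5 with MEA (0.09, SE 0.42, adjusted p = 0.924). Including these, 10 genes read above all 3 MEA day 1 arrays in both replicates. In replicate 2 each of the 10 lay under all 3 of them, as did all 200 genes. The shares of all probe sets above the day 1 arrays were not counted, and the share under them in replicate 2 is not given. The counts in this paragraph, that of all 200 genes included, thus describe the set only. AT5G43440 (-0.16, SE 0.34) and AT3G51660 (-0.13, SE 0.34) were the closest to 0 among the genes with a negative difference.

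Single MEA arrays departed in other genes, named after their values were seen. AT3G16530 read 9.81, 4.07 and 7.04 in the MEA arrays of day 5 after 7.33, 6.8 and 7.36 on day 1, so that replicate 1 read above, and replicate 2 below, every day 1 array. AT5G05600 read 9.41, 8.35 and 6.06 after 9.37, 9.43 and 9.4. In AT5G05600 the lowest array was replicate 3, in contrast to most of the set. AT3G05730 read 6.35, 3.62 and 8.59 after 7.03, 7.52 and 6.39, with replicate 3 the highest. None of the 3 genes passed the test (adjusted p = 0.923, 0.164 and 0.642).

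The count with MEA depended on which arrays entered the fit. It was 0 of 200 (with 0 of all probe sets, and 55 of the 200 at an unadjusted p under 0.05) with the 6 MEA arrays alone. With array weights it was 68, with 15.7% of all probe sets called lower. Without MEA day 1 replicates 1, 2 and 3 it was 15, 20 and 13, with 0.572%, 0.85% and 0.447% of all. Without MEA day 5 replicate 3 it was 90, with 7.95% of all. Without MEA day 5 replicate 2 it was 39, 34 of them among the 37, with 5.18% of all, and the median difference of the set was -0.33. The share called over all probe sets also differed between these fits. With MEA day 5 replicate 2 as the only MEA array of day 5 it was 196, with 19.1% of all. That array was already known to read low in these genes and its spread is assumed to be that of the other groups, so this count is a description of 1 array and no support for the fall.

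EAA was compared with the reference on each day. The score was made from these same 4 group means, and taking the smaller fall favours genes that fell in both, so these tests are not independent of the rule and their counts support nothing about likeness or difference of the treatments. On day 1 the EAA minus reference differences ran from -1.04 to 0.74 with a median of -0.04, and in 165 genes the 3 group means of day 1 lay within 0.5 of each other. On day 5 the differences ran from -1.55 to 1.22 with a median of -0.09, and 8 genes were at least 1 apart. In the fit of all 18 arrays limma called 0 of the 200 on day 1 (0.022% of all probe sets) and 0 on day 5 (0% of all), with 1 and 5 of the 200 at an unadjusted p under 0.05 (3.19% and 7.45% of all). The uneven MEA arrays of day 5 enter the error of that fit, so fits on fewer arrays are given beside it.

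Without the MEA day 5 group 5 genes (2.5% of the set) were called between EAA and the reference on day 5, against 1.58% of all probe sets. AT3G04210 read 5.22, 5.21 and 4.9 with EAA and 6.21, 6.79 and 6.97 in the reference. It was lower with EAA by 1.55 (SE 0.18, adjusted p = 0.00121, and 0.000775 to 1 over the 26 alternative fits). The day 1 arrays of both treatments lay between 8.58 and 8.96, and none of the EAA and reference arrays overlapped on day 5. AT5G62350, a bright gene, read 8.15, 9.18 and 8.49 with EAA and 9.27, 9.87 and 9.46 in the reference, lower by 0.92 (SE 0.20, adjusted p = 0.0376, and 0.0323 to 1 over the 26 alternative fits). Here the highest EAA array and the lowest reference array lay close together. AT3G16530 was lower with EAA by 0.86 (SE 0.17, adjusted p = 0.0239, and 0.0239 to 1 over the 26 alternative fits). AT1G78460 was lower by 0.88 (SE 0.19, adjusted p = 0.0295, and 0.0295 to 1 over the 26 alternative fits). AT3G51660 was the gene called higher with EAA. It read 7.1, 7.43 and 6.61 with EAA and 6.53, 5.16 and 5.78 in the reference, higher by 1.22 (SE 0.27, adjusted p = 0.0348, and 0.00542 to 1 over the 26 alternative fits). Reference replicate 1 and EAA replicate 3 nearly met. In a fit of the 9 arrays of day 5 alone 0 of the 200 were called (1 at an unadjusted p under 0.05). The fit without the MEA day 5 group is itself 1 of the 26 alternatives. Across the 26, AT3G04210 was called in 3, AT5G62350 and AT3G51660 in 2, and AT3G16530 and AT1G78460 in 1.

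With the 9 arrays of day 1 alone 9 genes (4.5% of the set) were called between EAA and the reference on day 1, against 1.41% of all probe sets. AT5G19120 read 7.11, 6.82 and 6.77 with EAA and 8.27, 7.64 and 7.92 in the reference. It was lower with EAA by 1.04 (SE 0.22, adjusted p = 0.0388, and 0.0388 to 1 over the 26 alternative fits). AT3G15630 read 6.56, 6.21 and 6.25 with EAA and 7.45, 7.18 and 7.27 in the reference, lower by 0.96 (SE 0.15, adjusted p = 0.00791, and 0.00791 to 1 over the 26 alternative fits). The arrays of both treatments did not overlap in either gene. AT1G07050, the gene with the largest fall with MEA, was lower with EAA by 0.84 (SE 0.16, adjusted p = 0.019, and 0.019 to 1 over the 26 alternative fits). AT4G36010 read 9.1, 9.48 and 9.25 with EAA and 8.46, 8.7 and 8.49 in the reference. EAA exceeded the reference by 0.73 (SE 0.13, adjusted p = 0.0134, and 0.0134 to 1 over the 26 alternative fits). AT3G44450 was also higher, by 0.74 (SE 0.16). The others were lower with EAA, AT1G49650 by 0.60, AT2G25200 by 0.54, AT2G30930 by 0.52 and AT3G04550 by 0.49. The fit of the day 1 arrays alone is itself 1 of the 26 alternatives. Across the 26, AT3G15630 was called in 2 and each other gene of the 9 in 1. Without the MEA day 5 group 0 of the 200 were called on day 1 (0.183% of all probe sets).

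**Figure D4:**
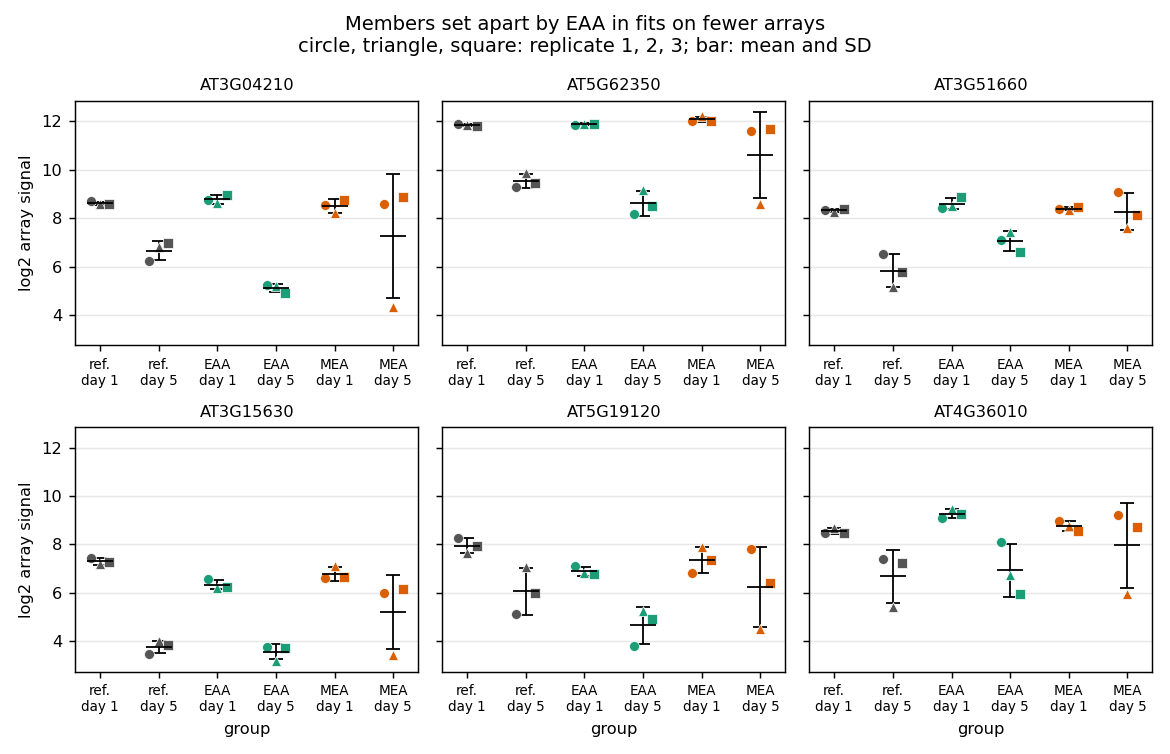
Log2 array signal (vertical axis) of 6 genes called between EAA and the reference in fits on fewer arrays, in the 6 groups (horizontal axis). Points are arrays (circle, triangle and square for replicates 1, 2 and 3), and bars give the mean and SD of 3 arrays. AT3G04210 and AT5G62350 are lower with EAA on day 5 and AT3G51660 is higher; AT3G15630 and AT5G19120 are lower with EAA on day 1 and AT4G36010 is higher.

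The position of the genes along the chromosomes was not used to choose them. By RefSeq gene order, 12 of the 200 genes (6%) lay directly next to another of the set, in 6 pairs, while 102 of the other 5987 locus-code genes (1.7%) lay next to one. The pairs were AT1G33590 with AT1G33600, AT2G43530 with AT2G43535, AT3G50270 with AT3G50280, AT4G30650 with AT4G30660, AT5G51560 with AT5G51570, and AT5G62350 with AT5G62360. The falls within a pair were close in some and apart in others. AT1G33590 and AT1G33600 fell by 1.81 and 1.81 in the reference and by 2.64 and 2.79 with EAA. AT5G62350 fell by 2.32 and 3.27, and its neighbour AT5G62360 by 4.88 and 5.5. AT5G51570 fell in all 3 MEA arrays, as given above, while AT5G51560 read 4.93, 3.47 and 5.31 there after 5.75, 5.56 and 5.45 on day 1 (-1.02, SE 0.33, adjusted p = 0.0996). Whether neighbours of like sequence share signal on the array was not tested.

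A second probe set of its own was found for 2 of the genes, and the same arrays gave the comparison, so it is a description of the measurement. For AT2G30600 the second probe set fell by 1.61 in the reference and 1.71 with EAA, against 2.64 and 2.28 for the probe set used. For AT1G31690 the second probe set had a mean of 3.57, at the low end of the scale, and fell by 0.35 and 0.68, against 2.37 and 2.01. The probe sets of AT1G31690 thus gave falls of different size, with the dimmer one the smaller.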

How the data were processed

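Log2 array signals of 22810 probe sets (64 of them controls) in 18 arrays were used as deposited. Per the submitters' processing notes the authors' tool was MAS5; its version, any scaling between arrays and the taking of logs are not stated there, and log2 was judged from the range of the values. Genes were named through the platform annotation and RefSeq (assembly TAIR10.1, for names and gene order only); the build is not given in the files. Each labelling reaction began from 10 µg of total RNA, and the number of arrays limits the precision.

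Probe sets with a mean at or above the 40th percentile (4.01) of all 22746 probe sets other than controls, 13648 in all, entered a linear model with 1 mean per group in limma 3.58.1 (R 4.3.3, lmFit, eBayes with an intensity trend; 12 residual degrees of freedom). Within each contrast the Benjamini-Hochberg adjusted p had to be under 0.05. SE is that of the fit, with 1 spread per probe set shared by all 6 groups. The model was also tested on simulated data. Plots were made with matplotlib 3.10.9.

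The genes, groups, tests and alternatives were chosen with earlier results of these data known. The rule leaves out a few genes by name. Genes named are the 20 highest scores, the 10 largest falls called with MEA without overlap of days, the 5 highest MEA differences, those at the edge of the rule, and those called between EAA and the reference; any others were named after their values were seen. The alternatives were median centring, quantile normalization, no filter, no intensity trend, array weights, a replicate block, fits on fewer arrays and leaving out each array. Promoter motifs and sequences were not analysed here.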

Additional observations from a re-analysis of the deposited data

How the results depend on the processing

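The 200 genes were picked again in large part by the rule under other processing, 198 after median centring, 196 after quantile normalization, 200 with the mean of all probe sets of a gene, and 178 (without reference day 5 replicate 2) to 195 when 1 reference or EAA array was left out. The number called lower with MEA, 37, was 29 to 37 with median centring, quantile normalization, no filter or no intensity trend. These fits called 1.08% (no filter) to 2.37% (no intensity trend) of all probe sets lower. With 1 array left out the number was 13 to 90, with 0.447% to 7.95% of all (without MEA day 5 replicate 2, 39, and 2 higher). It was 68 with array weights (and 6 higher; 15.7% of all probe sets lower), 0 with the 6 MEA arrays alone, and 196 with MEA day 5 replicate 2 alone, a lone array known to be low and assumed to vary like the other groups. Array weights gave MEA day 5 replicate 2 the lowest weight (0.08). Over all probe sets the share of calls that were higher with MEA was 40.6%, but 58.5% with median centring, which shifts the day 5 minus day 1 median of all probe sets by 0.09, 0.11 and 0.08 in the reference, EAA and MEA; the calls among the 200 were all lower under either scaling. The median MEA difference of the set, -0.98, was -0.90 and -0.92 under those scalings, and -1.29 to -0.33 with 1 MEA array left out. EAA against the reference gave 0 calls on day 1, 2 with array weights (0.96% of all probe sets), 9 with the day 1 arrays alone (1.41%) and 0 with any array left out. On day 5 it gave 0, 10 with array weights (3.12%), 5 without the MEA day 5 group (1.58%), and 0 to 2 with 1 array left out (2 without MEA day 5 replicate 2, 1.29%).

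With the replicate number as a block 33 genes were called lower with MEA, 32 of them among the 37, with 2.27% of all probe sets. Between EAA and the reference it called 0 on day 1 (0.00733% of all) and 0 on day 5 (0% of all). Same-numbered MEA arrays of both days deviated together at r = 0.05, 0.05 and 0.14, and those of the reference and EAA on day 5 at 0.43, 0.32 and -0.35, with 3 of 6 arrays closest to their own number in each; on day 1 the values were 0.14, 0.17 and 0.10, with 6 of 6. The numbers were not taken to pair the samples.

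Of 36 named genes, 25 kept the direction of their MEA difference in all 26 alternatives. The other 11 turned. With 1 array left out the MEA differences ran from -2.70 to 0.24 for AT5G03350, -1.70 to 0.10 for AT1G70820, -2.04 to 0.0154 for AT3G15450, -0.46 to 0.27 for AT5G43440, -0.53 to 0.22 for AT3G51660, -0.52 to 0.99 for AT3G44450, -0.46 to 0.83 for AT4G29610, -0.13 to 1.31 for AT3G18250, -0.57 to 0.20 for AT5G11610, -1.06 to 0.30 for AT2G25200, -0.61 to 0.40 for AT3G62110. With array weights the differences that turned were 0.061 for AT1G70820, 0.31 for AT3G15450, 0.29 for AT5G43440, 0.46 for AT3G51660, 0.16 for AT5G11610, 0.37 for AT2G25200, 0.046 for AT3G62110. With MEA day 5 replicate 2 alone they were -1.94 for AT3G44450, -1.39 for AT4G29610, -1.28 for AT3G18250. The cause of these turns was not tested. Day 5 signals under 4.01 limit the size of some of the falls.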
